A study of Rattus norvegicus with 20 samples.

Results

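The antigen presentation genes described here were 5 of the 24160 features in the count table. They were chosen by their Ensembl rat identifiers, which were given with the symbols Cd74 (ENSRNOG00000018735), RT1-Da (ENSRNOG00000032844), RT1-Bb (ENSRNOG00000032708), RT1-Ba (ENSRNOG00000000451) and B2m (ENSRNOG00000017123). All 5 identifiers were in the table, and none was dropped. The reference tables used here pair no Ensembl rat identifier with a symbol, so the symbols could not be checked. The questions were how these genes were expressed in the 4 groups, and whether their levels in the brain and in the left ventricle (LV) of a rat went together.

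The rats were males of the outbred Sprague-Dawley stock, weighing 250 to 300 g, with no genetic change stated. The 5 rats of the stress cardiomyopathy (SCM) group were immobilized for 6 hours over 7 days, while the 5 normal controls were not. The brain and the LV of each rat were sequenced as bulk RNA, giving 20 libraries in the groups control brain, SCM brain, control LV and SCM LV. The brain was labelled without a region and the age of the rats was not stated in the sources used here, so the brain libraries are of undefined regional makeup.

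Antigen presenting cells load peptides from engulfed proteins onto major histocompatibility complex (MHC) class II molecules, each an alpha chain paired with a beta chain, and display them to CD4+ T cells. Cd74, the invariant chain, occupies the peptide groove while the molecule is assembled and transported. MHC class I molecules, which are found on nearly all nucleated cells and present peptides from inside the cell to CD8+ T cells, need the light chain made by B2m. In heart and brain, class II molecules are known mainly from resident macrophages, microglia, dendritic cells and B cells. In rats the MHC is called RT1. RT1-Da encodes the alpha chain of the DR-like molecule, and RT1-Ba and RT1-Bb encode the alpha and beta chains of the DQ-like molecule. RT1 class II genes are members of a multigene family and are highly polymorphic, so how reads from alleles that differ from the reference genome were placed can affect their counts. This was not tested.

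The sequences before the gene starts are shown because class II genes are known for shared promoter elements, named the X and Y boxes, through which the transactivator CIITA acts. They are the 250 bases upstream of each RefSeq gene start in build GRCr8, matched by symbol for 5 of 5 genes. The Cd74 window is chr18:56526956-56527205 on the plus strand, and the B2m window is chr3:129549080-129549329 on the plus strand. The 3 class II windows lie on chromosome 20, RT1-Da at chr20:4515165-4515414 on the plus strand, RT1-Ba at chr20:4576807-4577056 on the plus strand and RT1-Bb at chr20:4604119-4604368 on the minus strand. Capitals mark matches on either strand to the Y box (CTGATTGG), the CCAAT box (CCAAT), the X box and the interferon-stimulated response element or ISRE. The X box and the ISRE were searched with any base allowed at some positions, and their matches here read AGCAACAGATG before RT1-Da, AGAGACAGATG before RT1-Bb and GAAACTGAAA before B2m. The Y box holds a CCAAT box on the opposite strand, so these matches overlap.
Cd74: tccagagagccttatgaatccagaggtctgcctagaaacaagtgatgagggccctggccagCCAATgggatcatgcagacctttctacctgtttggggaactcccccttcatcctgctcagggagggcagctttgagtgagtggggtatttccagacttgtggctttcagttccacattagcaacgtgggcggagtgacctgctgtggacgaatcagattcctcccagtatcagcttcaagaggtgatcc
RT1-Da: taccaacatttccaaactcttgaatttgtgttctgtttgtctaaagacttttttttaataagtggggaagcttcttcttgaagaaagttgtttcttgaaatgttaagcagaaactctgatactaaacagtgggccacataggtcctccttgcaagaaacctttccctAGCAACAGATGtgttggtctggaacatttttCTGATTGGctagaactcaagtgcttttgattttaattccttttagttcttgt
RT1-Ba: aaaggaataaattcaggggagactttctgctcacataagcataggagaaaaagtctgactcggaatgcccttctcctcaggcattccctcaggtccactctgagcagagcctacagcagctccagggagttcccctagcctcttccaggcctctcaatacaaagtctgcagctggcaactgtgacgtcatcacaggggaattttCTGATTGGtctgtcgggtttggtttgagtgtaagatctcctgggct
RT1-Bb: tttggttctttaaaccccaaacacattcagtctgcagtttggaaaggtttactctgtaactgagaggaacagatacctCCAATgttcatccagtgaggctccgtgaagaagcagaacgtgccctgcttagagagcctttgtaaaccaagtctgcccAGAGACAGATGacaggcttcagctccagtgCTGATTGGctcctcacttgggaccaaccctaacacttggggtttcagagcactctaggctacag
B2m: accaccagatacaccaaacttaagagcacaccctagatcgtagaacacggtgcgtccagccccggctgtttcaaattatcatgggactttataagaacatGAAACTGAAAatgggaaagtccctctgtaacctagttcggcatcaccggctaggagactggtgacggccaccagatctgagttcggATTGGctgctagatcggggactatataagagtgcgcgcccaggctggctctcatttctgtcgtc

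The Y box was found before RT1-Da, RT1-Ba and RT1-Bb, 52, 46 and 64 bases upstream of the start by its first base, and in 3.19% of 33469 RefSeq rat windows of the same length. The X box pattern searched was matched before RT1-Da and RT1-Bb, ending 20 and 19 bases before the Y box, and in 0.753% of all windows. Of the patterns searched, only the CCAAT box was matched before Cd74, as it was in 34% of all windows. A box with letters other than those searched was not counted. A missing match before Cd74 or RT1-Ba thus does not show that a box is absent. The ISRE was found before B2m and in 3.41% of all windows. In the RefSeq order of the class II region, RT1-Da was followed by RT1-Db2, RT1-Db1, RT1-Ba and RT1-Bb. RT1-Ba and RT1-Bb were thus neighbours, on opposite strands. These matches describe the letters of the reference and not binding in these rats.

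The total count of a library was between 22386526 and 36251990. Replicate libraries of a group differed by at least 11.6 times the variance expected from sampling in each of 40 pairs, so none was a copy of another. Over 13379 genes tested in both tissues, each brain was compared with the LVs of its stress group, as deviations from the group mean. It correlated best with the LV of the same rat in 10 of 10 rats. The correlation was 0.07 to 0.22 for the own LV and -0.14 to 0.03 for the LV of other rats of the group. Centring on the group mean itself tends to make the latter negative where the former is positive. The tissue labels were not checked against marker genes, since no symbols could be assigned to the rest of the table. Levels are given as CPM, the counts of a gene per 1000000 counts of its library, scaled over all 20 libraries with the trimmed mean of M values (TMM). They are compared between groups of the same gene and not between genes, because transcript lengths were not used here.

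Cd74, the invariant chain, was measured with 190 to 12573 counts per library. In control brain it was 10.4, 9.06, 8.64, 6.31 and 26 CPM in rats 1 to 5, with a mean of 12.1 ± 7.91 CPM (SD, n = 5). In SCM brain it was 14.7, 7.5, 26.2, 8.99 and 6.6 CPM, with a mean of 12.8 ± 8.13 CPM (SD, n = 5). Each brain group thus held a single rat near 26 CPM, control rat 5 and SCM rat 3, above all other rats of its group. The control LV gave 360, 233, 234, 271 and 504 CPM, with a mean of 320 ± 115 CPM (SD, n = 5). The SCM LV gave 332, 375, 327, 373 and 311 CPM, with a mean of 344 ± 28.6 CPM (SD, n = 5). All 5 SCM values lay within the range of the control LV, and control rat 5 was the highest in LV as it was in control brain.

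RT1-Da, the DR-like alpha chain, had 48 to 1457 counts per library. Its level in control brain was 2.98, 1.69, 1.54, 1.89 and 8.19 CPM, with a mean of 3.26 ± 2.82 CPM (SD, n = 5). Its level in SCM brain was 3.98, 1.92, 4.94, 1.4 and 1.67 CPM, with a mean of 2.78 ± 1.58 CPM (SD, n = 5). Control rat 5 and SCM rat 3 were again the highest brains of their groups. For the control LV the values were 38.8, 36.2, 28.1, 24.4 and 39.7 CPM, with a mean of 33.5 ± 6.83 CPM (SD, n = 5). For the SCM LV they were 26.6, 16.3, 57.5, 37.1 and 27.2 CPM, with a mean of 32.9 ± 15.6 CPM (SD, n = 5). SCM rat 3 had the highest and SCM rat 2 the lowest LV level of all 10 rats.

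RT1-Bb, the DQ-like beta chain, was low in brain, with 19 to 73 counts per library there and 118 to 528 in LV. Control brains had 1.12, 1.16, 0.521, 0.655 and 0.722 CPM, with a mean of 0.836 ± 0.288 CPM (SD, n = 5). SCM brains had 1.2, 1.42, 2, 1.32 and 0.973 CPM, with a mean of 1.38 ± 0.385 CPM (SD, n = 5). The lowest SCM brain, that of rat 5, lay below the 2 highest control brains, so the groups overlapped. Control LVs had 19, 18.1, 7.8, 6.87 and 4.73 CPM, with a mean of 11.3 ± 6.7 CPM (SD, n = 5). SCM LVs had 8.63, 7.5, 14.4, 16.4 and 8.85 CPM, with a mean of 11.2 ± 3.98 CPM (SD, n = 5). Control rats 1 and 2 were the highest of their group in both tissues.

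RT1-Ba, the DQ-like alpha chain, had the widest range of the members between rats in SCM brain and control LV, at 5.71-fold and 12.8-fold, but not in SCM LV. In control brain the range was 27.1-fold, and without control rat 4 it was 2.66-fold, below the 5.34-fold of RT1-Da. In control brain rats 1 to 5 had 0.955, 1.42, 1.26, 0.0524 and 0.535 CPM, with a mean of 0.845 ± 0.557 CPM (SD, n = 5). The value of control rat 4 rested on 2 counts, below the limit of 3 counts used here for a floor. In SCM brain the values were 2.38, 2.25, 0.879, 0.702 and 0.417 CPM, with a mean of 1.33 ± 0.921 CPM (SD, n = 5). In control LV they were 10.7, 19.9, 13.3, 5.18 and 1.56 CPM, with a mean of 10.1 ± 7.14 CPM (SD, n = 5). In SCM LV they were 10.8, 10.1, 11.5, 9.42 and 4.71 CPM, with a mean of 9.3 ± 2.68 CPM (SD, n = 5). The highest control LV exceeded the lowest by 12.8-fold. Control rat 5, which had the most Cd74 and RT1-Da in control LV, had the least RT1-Ba and the least RT1-Bb there.

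B2m, the class I light chain, had 5864 to 33524 counts per library. The ratio of its highest to its lowest rat was the smallest of the members in both brain groups and in control LV, while in SCM LV it was 1.43 and that of Cd74 was 1.2. Control brains had 263, 216, 250, 209 and 261 CPM, with a mean of 240 ± 25.6 CPM (SD, n = 5). In SCM brains B2m was 225, 312, 274, 212 and 204 CPM, with a mean of 245 ± 46.1 CPM (SD, n = 5). Control LVs reached 1169, 1316, 1248, 1250 and 976 CPM, with a mean of 1192 ± 132 CPM (SD, n = 5). SCM LVs reached 997, 1056, 1322, 1070 and 927 CPM, with a mean of 1074 ± 150 CPM (SD, n = 5). Both LV groups overlapped, as did both brain groups.

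**Figure D1:**
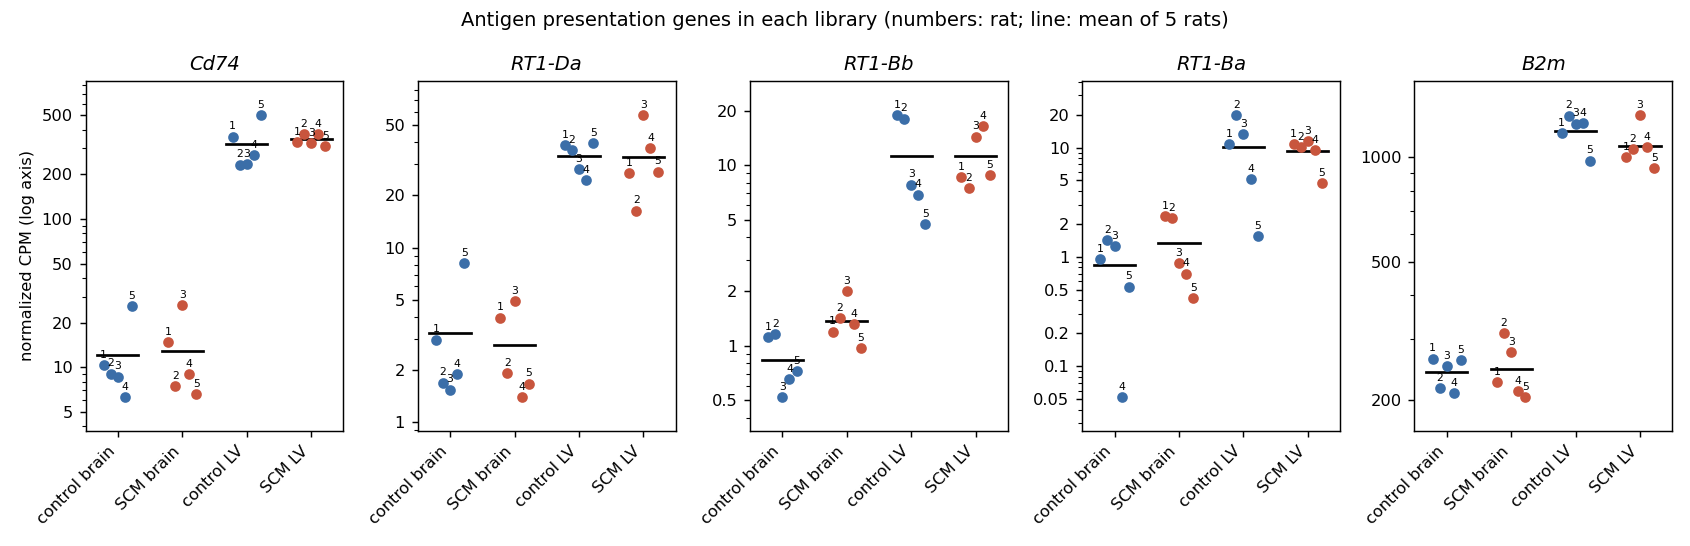
Normalized CPM (log axis) of the 5 genes in each library of control brain, SCM brain, control LV and SCM LV. Points are rats, the number beside a point is the rat within its group, and the line is the mean of 5 rats. Group means are higher in LV than in brain for each gene, though the RT1-Ba tissues overlap in single rats, control and SCM overlap within each tissue, and the low RT1-Ba point is control rat 4 with 2 counts.

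The spread between rats was described by the coefficient of variation beyond counting error, estimated within the stress groups. In brain it was 64.8% for Cd74, 72.9% for RT1-Da and 65.6% for RT1-Ba, against a median of 13.4% over 16002 genes. Of all genes, 2.84%, 1.79% and 2.7% varied more than these members in brain. RT1-Bb, at 27.2%, and B2m, at 15.5%, lay closer to the median there. In LV the order was different, with 53.5% for RT1-Ba, 48% for RT1-Bb, 35.7% for RT1-Da, 25.2% for Cd74 and 12.6% for B2m, against a median of 16.9% over 13954 genes. The DQ-like chains thus had the widest spread of the members in LV, whereas in brain RT1-Da, RT1-Ba and Cd74 had like values and RT1-Bb was lower.

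Immobilization stress in the LV was compared first. None of the 5 genes passed the threshold, an adjusted p of 0.05 in the quasi-likelihood test of edgeR, where 5.21% of 13954 genes did. At an unadjusted p of 0.05 the number was also 0 of 5, against 23.2% of all genes. With RLE normalization, without a filter, and with DESeq2 and limma-voom, it was 0 of 5 both adjusted and unadjusted. The log2 fold change of SCM over control was 0.12 for Cd74, with a 95% confidence interval from -0.28 to 0.53. It was 0.00 for RT1-Da (-0.59 to 0.59), and 0.01 for RT1-Bb (-0.82 to 0.83). RT1-Ba had -0.11 (-1.19 to 0.97) and B2m had -0.13 (-0.38 to 0.11). The interval of RT1-Ba was the widest and that of B2m the narrowest. The median log2 fold change was 0.00 over the members and -0.01 over all genes. In bulk tissue, fewer cells of a type and less RNA per cell cannot be told apart.

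In the brain, 0 of 5 genes passed the adjusted threshold of edgeR, against 0.175% of 16002 genes. RT1-Bb was the member nearest to it. Its log2 fold change was 0.73 ± 0.31 (SE), with an interval from 0.05 to 1.40, an unadjusted p of 0.0376 and an adjusted p of 0.325. The exact two-sided permutation test of its 5 and 5 values gave p = 0.0397, where the smallest p the design allows is 0.00794. At an unadjusted p of 0.05, 1 of 5 members was counted by edgeR, RLE normalization, no filter, DESeq2 and limma-voom, and 14.3% of all genes reached it in edgeR. RT1-Ba, the partner chain, had a log2 fold change of 0.66 with an interval from -0.74 to 2.05. Cd74 had 0.08 (-0.86 to 1.01), RT1-Da had -0.23 (-1.33 to 0.86) and B2m had 0.03 (-0.23 to 0.29). Without control rat 5, the value of RT1-Da became 0.46 and that of Cd74 became 0.57, and without SCM rat 3 that of Cd74 became -0.36. Over the members the median was 0.08, and over all genes it was 0.00.

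The stress effects of the tissues were then compared in a single fit to all 20 libraries, in which each rat was a block. None of 5 genes passed in edgeR, against 0.754% of 16720 genes, and 0 of 5 reached an unadjusted p of 0.05, against 13.9% of genes. It was also 0 of 5 with RLE normalization, no filter, DESeq2 and limma-voom. The difference, LV effect less brain effect, was -0.64 for RT1-Bb on the log2 scale, with an interval from -1.35 to 0.07. For RT1-Ba it was -0.51 (-1.89 to 0.86), for B2m -0.17 (-0.52 to 0.18), for Cd74 0.09 (-0.70 to 0.88) and for RT1-Da -0.04 (-0.99 to 0.92).

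**Figure D2:**
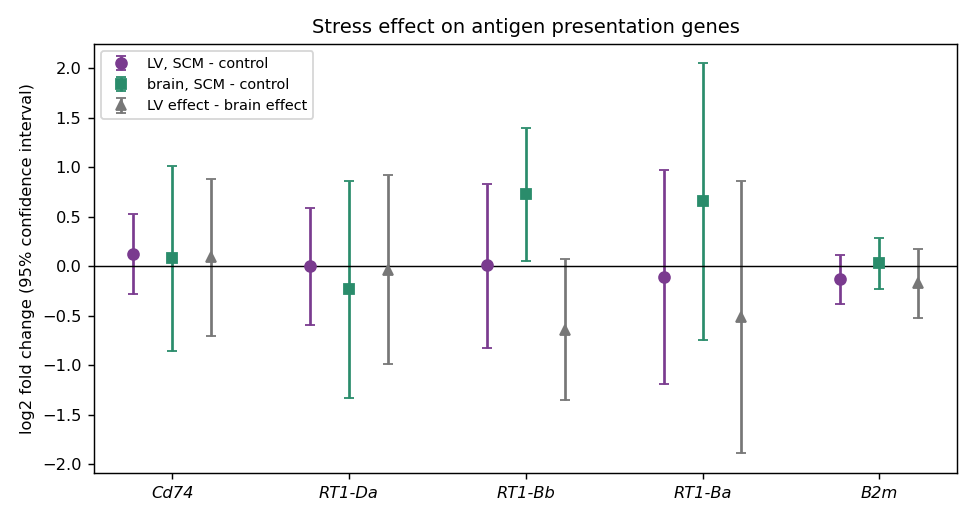
Log2 fold change of SCM over control in LV (circles) and in brain (squares), and the LV effect less the brain effect (triangles), for the 5 genes. Bars are 95% confidence intervals. RT1-Bb in brain has an interval from 0.05 to 1.40 with an adjusted p of 0.325, and all other intervals drawn include 0.

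The tissues differed more than the stress groups did. In the controls all 5 genes were lower in brain than in LV and passed the threshold, as did 37.1% of 15909 genes in this direction. Every control brain lay below every control LV for each of the 5 genes, which held for 32.3% of all genes. Cd74 in LV was 29-fold its level in brain (interval 21.6 to 38.9), with an adjusted p of 1.42e-07 in edgeR, and the largest adjusted p of the members was 0.000368, for RT1-Ba. The fold was 12.4 for RT1-Da (7.44 to 20.7), 12.4 for RT1-Bb (8.14 to 18.8), 11.5 for RT1-Ba (4.95 to 26.9) and 5.02 for B2m (4.06 to 6.2). The interval of B2m did not meet those of Cd74, RT1-Da and RT1-Bb. Differences of fold between genes were not tested.

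These folds depend on the scaling. With TMM the median log2 difference, brain less LV, was 0.12 over all genes, and with scaling by total count alone it was 0.91. The members then had -4.06 (Cd74), -2.85 (RT1-Da), -2.83 (RT1-Bb), -2.75 (RT1-Ba) and -1.53 (B2m) on the log2 scale, and 20.8% of all genes were called lower in brain and 62.7% higher, against 37.1% and 42.6%. Subtracting the median of all genes removes a shift that all genes share, so the result is nearly the same under either scaling by construction. Relative to that median, Cd74 was at -4.97 and B2m at -2.44.

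Within each rat, LV exceeded brain in 10 of 10 rats for each of the 5 genes, as it did for 31.2% of 16720 genes. The fold of LV over brain in a rat ranged from 12.5 to 50 for Cd74, from 4.85 to 26.4 for RT1-Da, from 5.28 to 16.9 for RT1-Bb and from 3.38 to 6.11 for B2m. For RT1-Ba it was 2.92 to 14 apart from control rat 4, whose 123 counts in LV and 2 in brain gave a ratio of 99 with a counting interval of 26.8 to 826 (exact binomial, 95%). The highest RT1-Ba brain, 2.38 CPM in SCM rat 1, exceeded the lowest RT1-Ba LV, 1.56 CPM in control rat 5, so the tissues overlapped for this gene when all 10 rats were taken. In the order of group means, the LV groups stood above the brain groups for each gene. Neighbours within a tissue did not differ beyond their spread after adjustment, with RT1-Bb in brain the nearest to it.

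Whether the levels of a rat in brain and LV went together was examined over the 10 rats. Log2 CPM, with a prior of 0.5 CPM, was centred on the mean of the rat's own stress group in each tissue, and every rearrangement of LV values within the stress groups was enumerated. None of the 5 members passed at an adjusted p of 0.05, and neither did any of 13379 genes (0%), while 7.79% of genes reached an unadjusted p of 0.05. The smallest p that the 14400 rearrangements can give is 6.94e-05, so an adjusted p under 0.05 would need at least 19 genes at that value, and a count of 0 says little about the members. The median r over all genes was 0.13. Both libraries of a rat come from the same animal, and anything else they share in handling cannot be told apart from it.

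RT1-Bb had the highest r of the members, 0.69 (exact permutation p = 0.0556, adjusted p = 0.658), with a Spearman rho of 0.49 (exact p = 0.193, adjusted p = 0.852). Without the 2 rats farthest from the brain median, SCM rat 3 and control rat 2, r was 0.57. Deviations had the same sign in both tissues in 8 of 10 rats, and 5.22% of all genes had a higher r.

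For RT1-Ba r was 0.59 (exact permutation p = 0.0926, adjusted p = 0.73) and rho was 0.55 (exact p = 0.0694, adjusted p = 0.733). It was 0.52 without control rat 4 and SCM rat 5, and the signs were the same in 8 of 10 rats. Of all genes, 10.3% had a higher r. SCM rat 5 was low in both tissues, at -0.93 in brain and -0.82 in LV, and control rat 2 was high in both, at 0.72 and 1.30.

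Cd74 had an r of 0.52 (exact permutation p = 0.135, adjusted p = 0.778) and a rho of 0.38 (exact p = 0.291, adjusted p = 0.891). This rested on control rat 5, which deviated by 1.26 in brain and 0.70 in LV, since r was -0.04 without it. Without control rat 5 and SCM rat 3, the 2 rats farthest in brain, r was 0.14. SCM rat 3 was as high in brain, at 1.21, but deviated by -0.07 in LV. The signs were the same in 5 of 10 rats, and 14.8% of all genes had a higher r.

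RT1-Da had an r of 0.47 (exact permutation p = 0.171, adjusted p = 0.81) and a rho of 0.21 (exact p = 0.586, adjusted p = 0.958). Without control rat 5 and SCM rat 3 it was -0.02, so the relation rested on those rats. The signs were the same in 7 of 10 rats, and 18.6% of all genes had a higher r. B2m had an r of 0.08 (exact permutation p = 0.849, adjusted p = 0.986), a rho of 0.07 (exact p = 0.876, adjusted p = 0.998) and -0.05 without SCM rats 2 and 5. Its signs were the same in 5 of 10 rats, and 54.7% of all genes had a higher r. Cd74 and B2m sloped in opposite directions in the stress groups, upward in control rats and downward in SCM rats for Cd74 and the reverse for B2m, and with 5 rats a group no correlation within a group is given. With 10 rats, correlations of moderate size cannot be separated from 0.

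**Figure D3:**
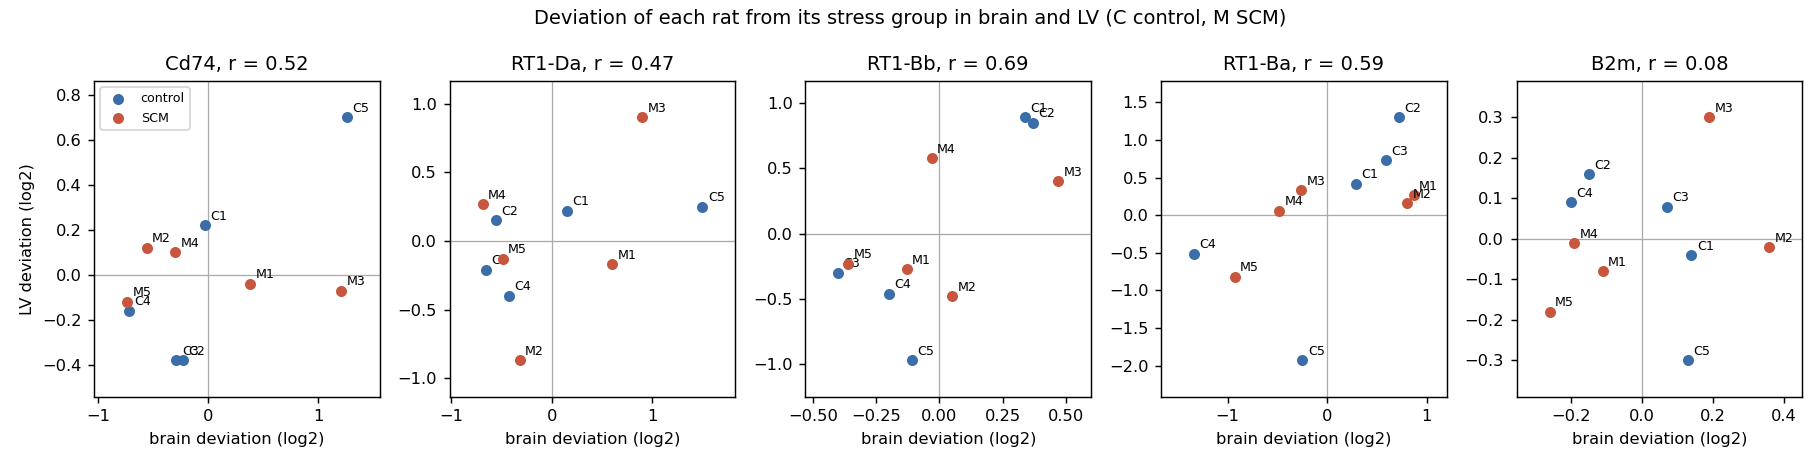
Deviation of each rat from the mean of its stress group in brain (x axis) and in LV (y axis), in log2 CPM, for the 5 genes. Points are 10 rats, coloured by stress group and numbered within it. The r is 0.69 for RT1-Bb, 0.59 for RT1-Ba, 0.52 for Cd74, where control rat 5 stands at the upper right, 0.47 for RT1-Da and 0.08 for B2m.

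**Figure D4:**
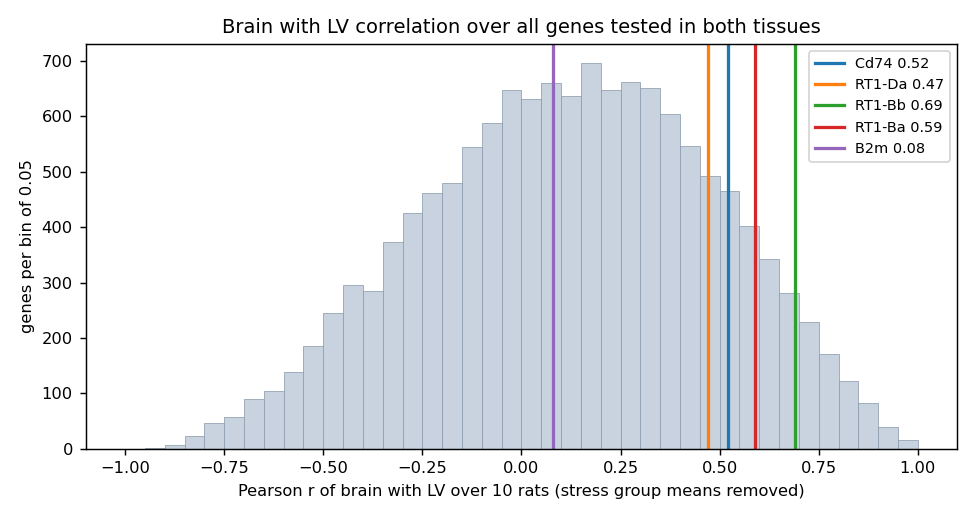
Number of genes per bin of 0.05 (y axis) by the Pearson r of brain with LV over 10 rats (x axis), for 13379 genes after removal of stress group means. Vertical lines mark the 5 genes, of which Cd74, RT1-Da, RT1-Bb and RT1-Ba lie at 0.47 to 0.69 and B2m lies at 0.08.

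The members were also set against each other within a tissue, as 20 correlations of a pair in a tissue over the same 10 rats. In brain, Cd74 and RT1-Da varied together with an r of 0.92 (exact permutation p = 0.00354) and a rho of 0.67 (exact p = 0.05). The adjusted p was 0.245 over all genes set against Cd74 and 0.398 over those set against RT1-Da, and 0% of genes were called in either family. Without the 2 rats farthest in either gene, r was 0.73. In LV the r of the same pair was 0.14 (exact permutation p = 0.576, adjusted p = 0.845 and 0.998), with a rho of 0.28 (exact p = 0.367), and r was 0.08 without the 2 rats farthest in Cd74 but 0.57 without the 2 farthest in RT1-Da. The difference between the tissues was not tested.

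RT1-Bb and RT1-Ba had an r of 0.70 in LV (exact permutation p = 0.0785, adjusted p = 0.875 and 0.626), with a rho of 0.56 (exact p = 0.177), and r was 0.59 without the 2 rats farthest in RT1-Bb but 0.31 without those farthest in RT1-Ba. In brain their r was 0.28 (exact permutation p = 0.466, adjusted p = 0.905 and 0.937), with a rho of 0.21 (exact p = 0.576) and r was 0.29 without the 2 rats farthest in RT1-Bb and -0.16 without those farthest in RT1-Ba. Cd74 and RT1-Ba had an r of -0.73 in LV (exact permutation p = 0.0848, adjusted p = 0.594 and 0.627) and a rho of -0.44 (exact p = 0.308). Its r was 0.01 without the 2 rats farthest in either gene, so the relation rested on those rats. In LV, B2m had an r of 0.72 with RT1-Ba (exact permutation p = 0.0163, adjusted p = 0.375 and 0.563), with a rho of 0.59 (exact p = 0.0935), and r was 0.64 and 0.40 without the 2 rats farthest in B2m and in RT1-Ba. B2m had an r of -0.67 with Cd74 there (exact permutation p = 0.0288, adjusted p = 0.39 and 0.588), with a rho of -0.62 (exact p = 0.0698), and r was -0.55 and -0.26 without the 2 rats farthest in B2m and in Cd74. In brain the same pairs had other values, and those of Cd74 with B2m and with RT1-Ba had the opposite sign. There r was 0.41 for Cd74 with B2m (exact permutation p = 0.28, adjusted p = 0.664 and 0.612), with a rho of 0.55 (exact p = 0.139), and 0.10 and 0.70 without the 2 rats farthest in Cd74 and in B2m. For Cd74 with RT1-Ba r was 0.14 (exact permutation p = 0.709, adjusted p = 0.916 and 0.972), with a rho of 0.38 (exact p = 0.306), and 0.67 and -0.50 without the 2 rats farthest in Cd74 and in RT1-Ba. For B2m with RT1-Ba r was 0.48 (exact permutation p = 0.185, adjusted p = 0.516 and 0.922), with a rho of 0.53 (exact p = 0.182), and 0.19 and 0.08 without the 2 rats farthest in B2m and in RT1-Ba. These differences between the tissues were not tested. The r of the remaining pairs lay between -0.34 and 0.53, and no pair passed after adjustment.

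The balance between members was compared across the tissues as well, as the log2 ratio of 2 members in a rat, centred on its stress group. These 10 ratios were computed after the levels had been seen, and their r was positive in 9, from 0.33 to 0.92, and negative in 1. A ratio of a member to any other gene had a median r of 0.44 for Cd74, 0.42 for RT1-Da, 0.60 for RT1-Bb, 0.57 for RT1-Ba and 0.11 for B2m, so a positive r is common to such ratios. The r of Cd74 over B2m, 0.33, and of Cd74 over RT1-Bb, 0.54, lay below a median of this kind. With the limit on the smallest p given above, 0% of genes were called when each member was set as a ratio to every other gene. The log2 ratio of RT1-Da to RT1-Ba had an r of 0.92 between brain and LV (exact permutation p = 0.000347) and a rho of 0.90 (exact p = 0.000625). Its adjusted p was 0.394 among the ratios of RT1-Da to all genes and 0.219 among those of RT1-Ba, so it did not pass. Of 13378 genes, 16 had a higher r as a ratio to RT1-Da and 11 as a ratio to RT1-Ba. Control rat 5 was high in both tissues, at 1.76 in brain and 2.18 in LV. Control rats 2 and 3 and SCM rat 2 were low in both, at -1.28, -1.25 and -1.12 in brain and -1.15, -0.94 and -1.04 in LV. The signs were the same in 9 of 10 rats, and r stayed between 0.90 and 0.96 when each rat was left out, at 0.88 without the 2 farthest rats and at 0.95 with a prior of 2 CPM.

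RT1-Da over RT1-Bb had an r of 0.87 (exact permutation p = 0.0084, adjusted p = 0.394 and 0.166) and a rho of 0.84 (exact p = 0.00729). Its r was 0.77 without the 2 farthest rats and 0.65 without control rat 5 alone. For RT1-Bb over RT1-Ba, the chains of the DQ-like molecule, r was 0.70 (exact permutation p = 0.0397, adjusted p = 0.166 and 0.219) and rho was 0.62 (exact p = 0.0794). It was 0.47 without the 2 farthest rats, and the signs were the same in 10 of 10 rats. This r was not far from that of other genes, since 27.4% of genes had a higher r as a ratio to RT1-Bb and 8.58% as a ratio to RT1-Ba, with medians of 0.60 and 0.57. The negative ratio was that of Cd74 to RT1-Da, with an r of -0.72 (exact permutation p = 0.0158, adjusted p = 0.383 and 0.394), a rho of -0.75 (exact p = 0.0267) and -0.82 for r without the 2 farthest rats. Its brain values fell into separate clusters, so this r mainly contrasts the clusters, and 99.9% of genes had a higher r as a ratio to Cd74. None of the 10 ratios passed after adjustment.

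**Figure D5:**
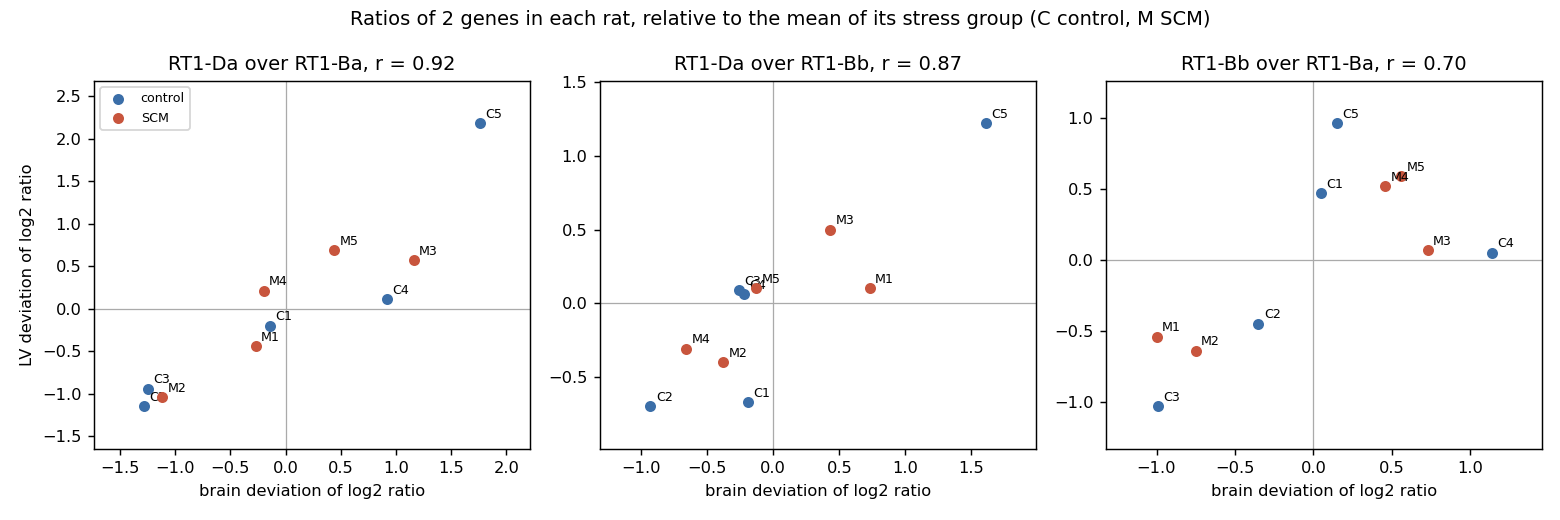
Deviation of the log2 ratio of 2 genes from the mean of the stress group in brain (x axis) and LV (y axis), for RT1-Da over RT1-Ba, RT1-Da over RT1-Bb and RT1-Bb over RT1-Ba. Points are 10 rats, labelled C for control and M for SCM with the rat's number. The ratios have r of 0.92, 0.87 and 0.70, with control rat 5 at the upper right of the first and second panels.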

How the data were processed

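RNA sequencing libraries of brain and LV were made with the NEBNext Ultra RNA kit per the labels. The submitters' processing notes name HISAT2, StringTie and SAMtools and the rat genome mRatBN7.2, while the counting program, its annotation and strand setting are not given in the sources used here. The authors deposited whole-number read counts per gene, not normalized, in a single table. Samples were grouped by their titles and descriptions, which also pair brain and LV of a rat.

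Counts were fitted over all genes with edgeR 4.0.16 (R 4.3.3) by the quasi-likelihood test, TMM and filterByExpr (minimum count 10, minimum total 15), with Benjamini-Hochberg adjustment and a threshold of 0.05. LV and brain were fitted separately, and the interaction and the control tissues with the rat as a block. DESeq2 1.42.0 and limma-voom (limma 3.58.1) were alternatives. Correlations over rats used SciPy 1.17.1 and exact enumeration within stress groups, adjusted over 13379 genes. The fits were tested on simulated data. The 5 members, named by identifier, and all lists were chosen with earlier results of these data known. The rule for named genes took all members. The fixed lists of class I, class II, interferon and cell type marker genes, and the genes most like each member, could not be matched to identifiers and were not analysed here. Same-numbered control and SCM libraries come from different rats. Where nothing states separate handling, p-values measure the spread between rats. Intervals of counts cover counting error only. Gene lengths and protein sequences were not used here.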

Additional observations from a re-analysis of the deposited data

Results flagged for a closer look

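In control brain, Cd74 of rat 5 was 26 CPM, while the other 4 rats had 6.31 to 10.4 CPM. RT1-Da of the same library was 8.19 CPM, while the other 4 rats had 1.54 to 2.98 CPM. On the CPM scale, both values lay farther from the nearest rat than Dixon's 95% limit for 5 samples allows. The rule was not applied on the log2 scale used for the comparisons. These were 2 of the 20 sets of 5 values examined, where chance flags about 1 in 20 if values are normally distributed. Both come from a single library, so they are not independent. The same rat had the highest Cd74 and RT1-Da and the lowest RT1-Bb and RT1-Ba of the control LVs. Without it, the stress effect in brain on the log2 scale was 0.57 for Cd74 and 0.46 for RT1-Da, and neither passed in edgeR.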

How the results depend on the processing

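The number of members called kept its value under every alternative run, 0 of 5 for stress in LV, in brain and for the interaction, 5 of 5 for the control tissues and 0 of 5 between the tissues of a rat, leaving out each rat in turn included. For the exact test between tissues this was close to fixed in advance, since 19 genes would have to reach its smallest p, and 93 with 1 rat left out. Directions of effects near 0 were not stable. In LV, RT1-Da was 0.01 with RLE and 0.01 with DESeq2, RT1-Bb was -0.01 in 1 fit of all 20 libraries, and RT1-Ba was 0.32 with limma-voom and 0.23 with the replicate block. The interaction of RT1-Da was 0.19 with limma-voom and 0.21 with no replicate block. Without the 2 farthest rats, r was -0.02 for RT1-Da and -0.05 for B2m.

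Leaving out 1 rat gave log2 ranges in LV of -0.29 to 0.17 (RT1-Da), -0.19 to 0.27 (RT1-Bb) and -0.38 to 0.30 (RT1-Ba). In brain they were -0.36 to 0.57 (Cd74), -0.54 to 0.46 (RT1-Da) and -0.07 to 0.09 (B2m), and for the interaction -0.06 to 0.42 (Cd74) and -0.41 to 0.20 (RT1-Da). Signs held, but values moved by over 1.5 times, for Cd74 and B2m in LV (0.03 to 0.34 and -0.21 to -0.09), RT1-Ba in brain (0.34 to 0.92) and the interactions of RT1-Ba (-0.93 to -0.15) and B2m (-0.28 to -0.04). The range of r was -0.04 to 0.73 for Cd74, 0.24 to 0.58 for RT1-Da and -0.20 to 0.32 for B2m. For the ratios of Cd74 it was -0.14 to 0.71 over RT1-Bb, -0.44 to 0.64 over B2m and 0.37 to 0.87 over RT1-Ba. The cause was not tested.

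Numbers shared by control and SCM labels do not pair rats. The deviations of same-numbered rats correlated at -0.06 on average in brain and 0.01 in LV, and the replicate block left 0 of 5 members called in both. The adjusted p of RT1-Bb in brain was 0.254 to 0.579 over the alternatives. Scaling by total count, the ratios and their settings were chosen after seeing the data. In brain, RT1-Bb and RT1-Ba rested on at most 100 counts per library, and the intervals also hold the spread between rats.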

Other observations

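The log2 ratio of Cd74 to RT1-Da fell into separate clusters in brain. Relative to the mean of their stress group, 6 rats lay between -0.30 and -0.17 in brain, namely control rats 1, 4 and 5 and SCM rats 1, 2 and 5. The other 4 rats, control rats 2 and 3 and SCM rats 3 and 4, lay between 0.31 and 0.38. In LV the 6 rats were at 0.00 to 1.00 and the 4 rats at -0.98 to -0.16, so the clusters did not overlap there either, in the opposite order. The clusters were seen in the values and were not tested themselves.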
